A study of Homo sapiens with 16 samples.

Results

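Immediate early and short-lived response genes were followed in ribosome-protected fragments (RPFs) and mRNA of HEK293T cells, an established line from human embryonic kidney, transformed and expressing SV40 T antigen. They were taken as a list of 10 symbols: JUN, ATF3, ID2, ID3, IER5, BTG2, GADD45A, RHOB, CYR61 and ZFP36L2. A member was found where the study's gene lists name a transcript for it, and 9 of the 10 were listed. Counts of BTG2 were not analysed here. Of the 9, 8 had counts in both assays and ATF3 only in Ribo-Seq. These 8 belong to 19044 transcripts joined between the assays, of which 10970 passed the filter on low counts and were tested. All 9 listed genes passed that filter in the assays in which they had counts, and no library held fewer than 21 RPF counts (ATF3) or 28 mRNA counts for any of them.

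Cells were untreated (UT), or kept for 1 hr in 1 µg/ml tunicamycin (Tm), in the same dose of Tm plus 200 nM ISRIB (Tm + ISRIB), or in ISRIB alone at that dose (ISRIB). Tm blocks N-linked glycosylation in the endoplasmic reticulum (ER) and so triggers ER stress, and ISRIB is a small molecule that makes cells insensitive to phosphorylation of the initiation factor eIF2α. Every treatment was done on 2 lysates, each of which served for Ribo-Seq and for mRNA-Seq, so that there were 16 libraries of a single cell line. Libraries are lettered a and b, and those of a treatment with a shared letter were taken as the same lysate, which the labels do not state. The question was how ER stress altered translation and mRNA levels of these genes, and whether ISRIB altered that response.

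Immediate early genes are transcribed within minutes of a stimulus from factors already present in the cell, without a need for new protein. Their mRNAs and proteins are commonly short-lived, and many of the mRNAs carry AU-rich elements in the 3′ UTR, which proteins of the ZFP36 family bind to recruit the CCR4-NOT deadenylase. Phosphorylation of eIF2α during ER stress lowers initiation on most mRNAs while some mRNAs with upstream open reading frames gain translation.

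The AU-rich sequences are shown because short-lived mRNAs are known for them. The list is of such genes, so a higher share than in other transcripts is not independent of the choice. Transcripts of all 9 listed members could be matched to GENCODE v29 (GRCh38), and each held at least 1 AUUUA pentamer in its 3′ UTR, against 75.1% of 1737 other named transcripts. The longer heptamer UAUUUAU was present in 7 of the 9, against 37.2% of the others, and was not found in ID3 or RHOB. The 3′ UTRs were of like length, with medians of 1217 nt and 1211 nt. The 9 transcripts held a median of 2.88 AUUUA per kb and the others 2.02. CYR61 had the highest density of the 9, 5.43 per kb, at the 90.9th percentile of the named transcripts, and ID3 the lowest, 1.91 per kb. No count from these libraries bears on the stability of the mRNAs. The following 29-nt stretches of annotated 3′ UTR, 1 for each of the 7 genes, have the heptamer in capitals; AUUUA lies within it. Letters are 5′ to 3′ on the mRNA.
JUN, chr1:58780819-58780847, minus strand, 1239 nt after the stop codon: uugcuuaugaaUAUUUAUaacagcauucu
ATF3, chr1:212620704-212620732, plus strand, 1160 nt after the stop codon: aaaauauuacuUAUUUAUccuaguauucc
ID2, chr2:8684114-8684142, plus strand, 448 nt after the stop codon: ugcuguguauaUAUUUAUauauaaauaua
IER5, chr1:181092443-181092471, plus strand, 2568 nt after the stop codon: gugucuuccuuUAUUUAUuuauuuauuua
GADD45A, chr1:67688260-67688288, plus strand, 497 nt after the stop codon: acaugaaaaguUAUUUAUgcuauaaauuu
CYR61, chr1:85583559-85583587, plus strand, 528 nt after the stop codon: acugaauguuuUAUUUAUcaaaauguagc
ZFP36L2, chr2:43223448-43223476, minus strand, 854 nt after the stop codon: acuauuuaacuUAUUUAUuaucuugugaa

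The IER5 stretch is a tandem repeat in which 3 heptamers overlap, and IER5 holds 4 in all. ZFP36L2, itself a protein that binds such elements, holds 3 in its own 3′ UTR, and CYR61 and ID2 hold 2 each.

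**Figure D1:**
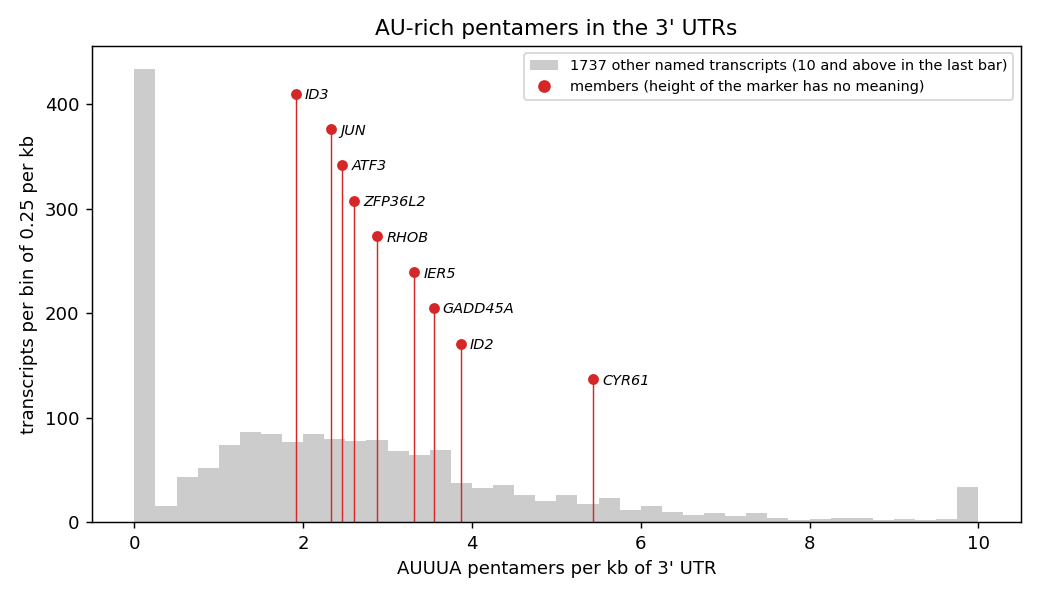
Histogram of AUUUA pentamers per kb of 3′ UTR (x axis) for 1737 named transcripts outside the list (grey; y axis, transcripts per bin), with each of the 9 members marked by a red line whose height has no meaning. The members lie between 1.91 (ID3) and 5.43 per kb (CYR61), and none is in the bar at 0.

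The 5′ end was read as well, because upstream AUGs bear on translation during eIF2α phosphorylation. The annotated 5′ UTRs of 6 of the 9 transcripts held at least 1 AUG, against 52.8% of the other named transcripts, and their median length was 392 nt against 203 nt. For ID2 and ATF3 more than 1 annotated transcript had the counted coding length, and the values used, 860 nt with 7 upstream AUGs for ID2 and 439 nt with 2 for ATF3, are those of the best ranked and then longest of these. The count of 6 and the median rest on that choice. CYR61, IER5 and ZFP36L2 had no upstream AUG. JUN, with 1257 nt of 5′ UTR and 3 upstream AUGs, had the longest leader of the 9. Promoter windows of 250 bases before the RefSeq start (GRCh38.p14) were available for JUN, ATF3, ID2, ID3, IER5 and RHOB, and for BTG2. In 8 such windows, searched on both strands, the site TGACATCA bound by dimers of JUN with ATF factors was found in the JUN window and in 1 of 2 ATF3 windows, and 2.37% of 35116 promoters hold it. No window held TGACGTCA (1.65% of all promoters), TGANTCA (6.57%) or a CArG box (1.16%). The RefSeq start of JUN lies downstream of the start of the GENCODE transcript used above, so that its site is also within the 1257 nt of 5′ UTR. The ATF3 site belongs to a RefSeq start upstream of the GENCODE transcript matched to the counted one, which starts at 212608628. Both matches are shown with the site in capitals, on the strand of the gene.
JUN, chr1:58784097-58784124, minus strand, site starting 67 bases before the RefSeq start: ggccttggggTGACATCAtgggctattt
ATF3, chr1:212565274-212565301, plus strand, site starting 123 bases before the RefSeq start: acctatgataTGACATCAtatggccact

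In the whole series, libraries held 3001612 to 11469150 RPF counts and 8466193 to 24499266 mRNA counts on the joined transcripts, with fewest RPF counts in the Tm libraries. The common biological coefficient of variation in edgeR came to 5.62% (RPFs) and 6.7% (mRNA). Counts are scaled within each assay, so a change shared by nearly all transcripts cannot be seen. A change in every cell cannot be told apart from a larger change in some cells. The median log2 fold change over all tested transcripts was between -0.01 and 0.01 in every comparison and quantity. The comparisons with UT use the same 2 untreated lysates and are therefore not independent of each other. Where libraries of treatments are said to lie apart or to overlap, this is description only. The share of all transcripts whose libraries lie apart in the same way was not computed.

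In resting cells most of the genes had more footprints for their mRNA level than the median transcript. Values here are reads per kilobase of counted coding sequence, scaled to library size (RPKM), and the ratio of RPF to mRNA is called translational efficiency; its median over all 10970 tested transcripts was 1.02 in UT a and 1.03 in UT b. The median of the 8 members was 3.73 in UT a and 3.57 in UT b. CYR61, a secreted matrix protein that binds integrins, had ratios of 12.7 and 9.96, at the 99.2nd and 98.6th percentiles. It did so with an mRNA of only 2.84 and 3.29 RPKM, under the 13th percentile, and an RPF level of 36.1 and 32.8 RPKM.

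ID2, GADD45A and ZFP36L2 were also above the 94th percentile in both untreated lysates. Their ratios were 4.95 and 7.84 for ID2, 6.94 and 4.36 for GADD45A, and 5.65 and 10.9 for ZFP36L2. Some of the high ratios rest on few mRNA counts in UT a and b. These were 37 and 39 for CYR61, 32 and 49 for GADD45A, and 71 and 49 for ZFP36L2. JUN (2.40 and 2.64) and ID3 (2.50 and 2.78) followed at the 85.3rd to the 87.8th percentile. IER5 (1.19 and 1.25) and RHOB (1.16 and 1.02) were near the median of all transcripts. Within the upper group the order cannot be read, since the lysates of ID2, GADD45A and ZFP36L2 overlap. In RPFs per length, ID2 (327 and 346 RPKM) and ID3 (269 and 290 RPKM) were the highest of the 8 and IER5 (14.1 and 21.3 RPKM) the lowest. Of the 15 other early response genes tested, the median ratio was 1.37 and 1.26. The highest of the 15 was BHLHE40, at 6.25 and 4.94 (97.0th and 95.3rd percentiles), so a high ratio was not particular to the members.

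**Figure D2:**
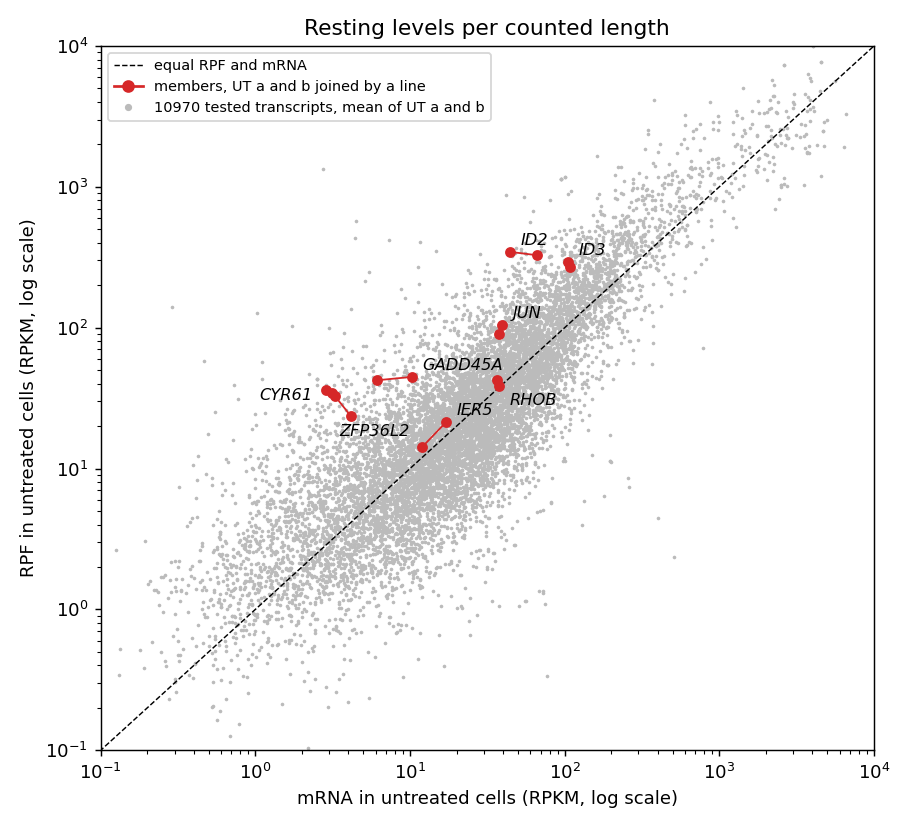
RPF level (y axis) against mRNA level (x axis) in untreated cells, both in RPKM on log scales, for 10970 tested transcripts (grey, mean of UT a and b) and the 8 members with both assays (red, UT a and b joined by a line); the dashed line marks equal levels. CYR61, ZFP36L2, GADD45A and ID2 lie far above the dashed line, and IER5 and RHOB close to it.

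JUN, the leucine zipper protein that pairs with FOS or ATF partners to form AP-1, had fewer footprints in Tm and in Tm + ISRIB than in UT, while no change in its mRNA passed the test. Its RPFs were 84.8 and 97.3 CPM (scaled with TMM factors within an assay) in UT a and b, 71.8 and 71.6 in Tm, 59.1 and 54.4 in Tm + ISRIB, and 63.4 and 76.8 in ISRIB. All 6 treated libraries were below both untreated ones, and those of Tm + ISRIB were the lowest, also below both Tm libraries. The RPF log2 fold change from UT was -0.34 ± 0.10 (SE) in Tm (quasi-likelihood test of edgeR, Benjamini-Hochberg adjusted p = 0.036, as for all adjusted p given without another name) and -0.68 ± 0.10 in Tm + ISRIB (adjusted p = 2.3e-04). In ISRIB alone it was -0.36 ± 0.10 (adjusted p = 0.63), of the size seen in Tm but in a comparison in which 2 of 10970 transcripts passed. From Tm to Tm + ISRIB, JUN RPFs fell by a further 0.34 ± 0.11 (adjusted p = 0.047).

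JUN mRNA was 35.4 and 36.8 CPM in UT, 34.5 and 35.3 in Tm, 38.7 and 41.7 in Tm + ISRIB, and 38.4 and 42.4 in ISRIB. All 4 libraries with ISRIB were above all 4 without it. The log2 fold changes of JUN mRNA from UT lay between -0.05 and 0.16, that from Tm to Tm + ISRIB was 0.20 ± 0.09 (adjusted p = 1), and none passed the test. The ratio of RPF to mRNA was 2.40 and 2.64 in UT, 2.08 and 2.03 in Tm, 1.53 and 1.31 in Tm + ISRIB, and 1.65 and 1.81 in ISRIB, with no overlap between any pair of these treatments. Translational efficiency of JUN fell by 0.83 ± 0.14 on the log2 scale in Tm + ISRIB against UT (adjusted p = 0.002) and by 0.54 ± 0.15 against Tm (adjusted p = 0.054). It was -0.29 ± 0.15 in Tm (adjusted p = 0.22) and -0.53 ± 0.14 in ISRIB (adjusted p = 0.23). The effect of Tm on JUN RPFs was -0.34 without ISRIB and -0.32 with it, and the difference between them was 0.03 ± 0.15 (adjusted p = 0.95). The calls in Tm against UT and in Tm + ISRIB against Tm were lost with DESeq2 (adjusted p = 0.12 in each), and without 1 of several libraries. They were lost without Tm a or b (both comparisons), UT b (the former), or Tm + ISRIB a or b (the latter), where the adjusted p was between 0.1 and 0.22. Both calls in Tm + ISRIB against UT, in RPFs and in translational efficiency, held in every alternative run.

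ATF3, a stress-induced member of the same leucine zipper class, had between 21 and 76 RPF counts per library over only 105 counted codons. CPM is not scaled to that length, so its values do not rank ATF3 against other genes. The counted transcript has a coding sequence of 125 codons with the stop, shorter than the 182 codons of the longest annotated form, and the values are those of this transcript. Its RPFs were 5.59 and 6.46 CPM in UT, 7.07 and 6.53 in Tm, 5.55 and 6.07 in Tm + ISRIB, and 7.16 and 6.59 in ISRIB. The Tm and ISRIB libraries were above both untreated ones, and those of Tm + ISRIB overlapped with them. The log2 fold change in Tm was 0.17 ± 0.26 (adjusted p = 0.75 over 12242 transcripts of Ribo-Seq alone, of which 12.9% passed). It was -0.06 ± 0.23 in Tm + ISRIB against UT (2.67% of all passed), 0.17 ± 0.24 in ISRIB (0.0245%) and -0.23 ± 0.27 from Tm to Tm + ISRIB (17.4%). None of these passed for ATF3, also with DESeq2 or at an unadjusted p under 0.05.

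**Figure D3:**
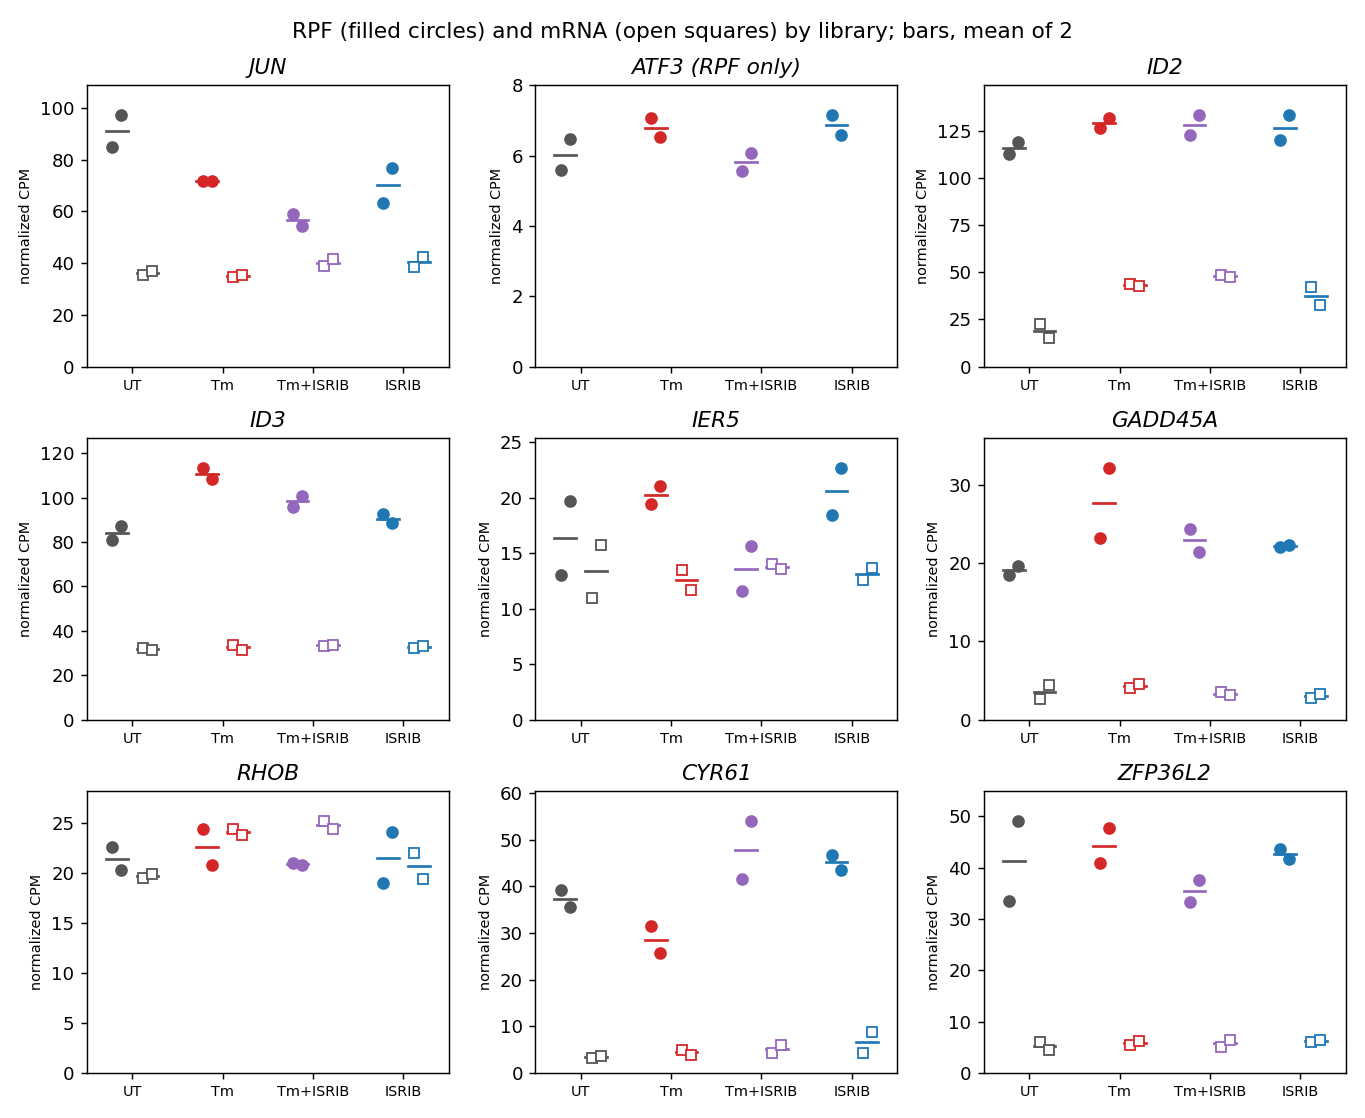
Normalized CPM (y axis) in each library for the 9 listed genes by treatment (x axis), RPFs as filled circles and mRNA as open squares, with a bar at the mean of 2 libraries. JUN RPFs are below UT in all treated libraries, ID2 mRNA is above UT in all treated libraries while ID2 RPFs differ little, and CYR61 RPFs are lowest in Tm.

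ID2 and ID3 encode helix-loop-helix proteins without a DNA-binding region, which hold bHLH transcription factors inactive. ID2 mRNA was 22.8 and 15.2 CPM in UT, 43.8 and 42.6 in Tm, 48.7 and 47.6 in Tm + ISRIB, and 42.3 and 32.5 in ISRIB. Every treated library was above both untreated ones. ID2 mRNA rose by a log2 fold change of 1.17 ± 0.17 in Tm (adjusted p = 0.017), 1.32 ± 0.16 in Tm + ISRIB (adjusted p = 0.0097) and 0.98 ± 0.17 in ISRIB (adjusted p = 0.059). ISRIB added to Tm changed it little, by 0.15 ± 0.15 (adjusted p = 1).

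The footprints of ID2 differed far less than the mRNA. Its RPFs were 113 and 119 CPM in UT, 126 and 132 in Tm, 123 and 133 in Tm + ISRIB, and 120 and 133 in ISRIB. Every treated library was above both untreated ones here too, but log2 fold changes were between 0.14 and 0.16 against UT, and none passed the test. The ratio of RPF to mRNA was 4.95 and 7.84 in UT and between 2.53 and 4.10 in the 6 treated lysates. Translational efficiency of ID2 thus fell by 1.01 ± 0.18 in Tm (adjusted p = 0.0017), by 1.18 ± 0.17 in Tm + ISRIB (adjusted p = 5.6e-04) and by 0.84 ± 0.18 in ISRIB (adjusted p = 0.085).

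UT b carried part of these values. Without it, the mRNA changes of ID2 were 0.92, 1.07 and 0.72 in Tm, Tm + ISRIB and ISRIB and none passed (adjusted p between 0.24 and 0.71). With edgeR, 0 of the 10970 transcripts passed in mRNA in these comparisons without UT b, so the loss was not particular to ID2. The mRNA call in Tm was also lost without Tm a or b (adjusted p = 0.2 and 0.17). That in ISRIB was lost with the UT and ISRIB libraries alone (adjusted p = 0.3) and without any 1 lysate of Tm or of Tm + ISRIB (adjusted p between 0.1 and 0.14). The translational efficiency calls in Tm (-0.71, adjusted p = 0.045) and in Tm + ISRIB (-0.88, adjusted p = 0.036) held without UT b. The call in ISRIB was lost with each lysate as a block (adjusted p = 0.13), with the UT and ISRIB libraries alone (adjusted p = 0.49), and without 6 of the 8 lysates in turn, where its lowest size was 0.55.

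ID3 differed from ID2, with a level mRNA and more footprints in Tm. ID3 mRNA was between 31.3 and 33.8 CPM in all 8 libraries. ID3 RPFs were 80.8 and 87.1 CPM in UT, 113 and 108 in Tm, 96.0 and 101 in Tm + ISRIB, and 92.5 and 88.4 in ISRIB. Both Tm libraries were above all others, and those of Tm + ISRIB came between them and UT. ID3 RPFs rose by 0.40 ± 0.09 in Tm (adjusted p = 0.0038), and translational efficiency by 0.38 ± 0.12 (adjusted p = 0.049). In Tm + ISRIB the RPF value was 0.23 ± 0.09 (adjusted p = 0.2), and from Tm to Tm + ISRIB it was -0.17 ± 0.09 (adjusted p = 0.22), so that neither return to UT nor a lasting rise was shown. The efficiency call was lost with DESeq2 (adjusted p = 0.13) and without Tm a, Tm b or UT a (adjusted p between 0.19 and 0.22), while the RPF call held in every alternative run.

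IER5 and GADD45A are regulators induced by stress. GADD45A, which acts in growth arrest after DNA damage, had 18.5 and 19.6 RPF CPM in UT, 23.1 and 32.1 in Tm, 24.4 and 21.4 in Tm + ISRIB, and 22.1 and 22.3 in ISRIB. All treated libraries were above UT, with the Tm pair wide apart. GADD45A RPFs rose by 0.51 ± 0.16 in Tm (adjusted p = 0.038), but without Tm b the value was 0.28 (adjusted p = 0.48), and DESeq2 gave an adjusted p of 0.11. Its mRNA was low, between 2.67 and 4.57 CPM over the 8 libraries, and no change in it or in translational efficiency passed.

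IER5, a nuclear protein linked to the heat shock factor HSF1, had 13.1 and 19.7 RPF CPM in UT, 19.4 and 21.1 in Tm, 11.6 and 15.7 in Tm + ISRIB, and 18.5 and 22.7 in ISRIB. The untreated pair overlapped with every treatment, while the Tm + ISRIB pair was below the Tm pair. IER5 RPFs fell by 0.56 ± 0.21 from Tm to Tm + ISRIB (adjusted p = 0.076). The value was -0.57 with DESeq2 (adjusted p = 0.19) and -0.37 without Tm + ISRIB a (adjusted p = 0.42), and the call was also lost without Tm a or b (adjusted p = 0.18 and 0.27). IER5 mRNA was between 11.0 and 15.8 CPM in all 8 libraries, its extremes being UT a and b, and none of its changes passed.

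CYR61 RPFs were 39.2 and 35.6 CPM in UT, 31.5 and 25.6 in Tm, 41.6 and 53.9 in Tm + ISRIB, and 46.7 and 43.6 in ISRIB. The Tm libraries were the lowest, and those of Tm + ISRIB were above UT. From Tm to Tm + ISRIB the RPFs of CYR61 rose by 0.73 ± 0.15, a fold of 1.66 (adjusted p = 0.0011). This was the largest RPF change among the 8 genes, it kept its call in each of the 14 alternatives, and it lay between 0.52 and 0.90. Against UT the values were -0.36 ± 0.14 in Tm (adjusted p = 0.12), 0.37 ± 0.12 in Tm + ISRIB (adjusted p = 0.14) and 0.28 ± 0.13 in ISRIB (adjusted p = 1), and none passed.

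CYR61 mRNA was low and variable, at 3.09 and 3.57 CPM in UT, 4.85 and 3.92 in Tm, 4.26 and 5.89 in Tm + ISRIB, and 4.35 and 8.76 in ISRIB. All treated libraries were above UT, but no mRNA change passed, the largest being 0.94 ± 0.33 in ISRIB (adjusted p = 0.24), with 0.38 (adjusted p = 0.5) without ISRIB b and 1.40 (adjusted p = 0.028) without ISRIB a. Its translational efficiency values had standard errors between 0.32 and 0.37, and none passed either.

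RHOB, a small GTPase of endosomes that is induced by stress and growth factors, showed no RPF change that passed the test. Its RPFs were between 18.9 and 24.3 CPM in all 8 libraries, and each treatment overlapped with UT. Its mRNA was 19.4 and 19.9 CPM in UT, 24.4 and 23.8 in Tm, 25.1 and 24.3 in Tm + ISRIB, and 21.9 and 19.4 in ISRIB. RHOB mRNA rose by 0.32 ± 0.09 in Tm + ISRIB (adjusted p = 0.069), with a like value of 0.29 ± 0.10 in Tm that missed the threshold (adjusted p = 0.12). The call was lost with DESeq2 (adjusted p = 0.22) and without any 1 of the lysates of UT, Tm or Tm + ISRIB, where the value stayed between 0.30 and 0.34.

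ZFP36L2, the AU-rich element binding protein, had 33.4 and 49.0 RPF CPM in UT, 41.0 and 47.7 in Tm, 33.2 and 37.5 in Tm + ISRIB, and 43.5 and 41.7 in ISRIB. The untreated pair spanned nearly the whole range. No change in its RPFs, mRNA (4.49 to 6.46 CPM) or efficiency passed, the largest RPF value being -0.31 ± 0.15 from Tm to Tm + ISRIB (adjusted p = 0.19).

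Counted together, 3 of the 8 genes passed in RPFs in Tm against UT (JUN down, ID3 and GADD45A up), where 13.5% of all tested transcripts did. JUN alone passed in Tm + ISRIB against UT (2.65% of all). In ISRIB against UT none of the 8 passed by edgeR's quasi-likelihood test or by DESeq2, with 2 at an unadjusted p under 0.05, and 0.0182% of all transcripts passed. In Tm + ISRIB against Tm, 3 passed (JUN and IER5 down, CYR61 up), against 17.7% of all. The median RPF change of the 8 was 0.13 in Tm and -0.21 from Tm to Tm + ISRIB.

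In mRNA, ID2 alone passed in Tm against UT (11.0% of all tested transcripts) and in ISRIB against UT (1.15%), and ID2 and RHOB passed in Tm + ISRIB against UT (14.2%). From Tm to Tm + ISRIB none of the 8 passed by edgeR's quasi-likelihood test or by DESeq2, with 1 at an unadjusted p under 0.05, and 0 of the 10970 transcripts (0.0%) passed. In translational efficiency 2 passed in Tm (ID2 down, ID3 up; 15.9% of all), ID2 and JUN fell in Tm + ISRIB against UT (8.96%), ID2 fell in ISRIB (0.191%), and JUN fell from Tm to Tm + ISRIB (6.11%). With so few genes these shares are given beside the background only.

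**Figure D4:**
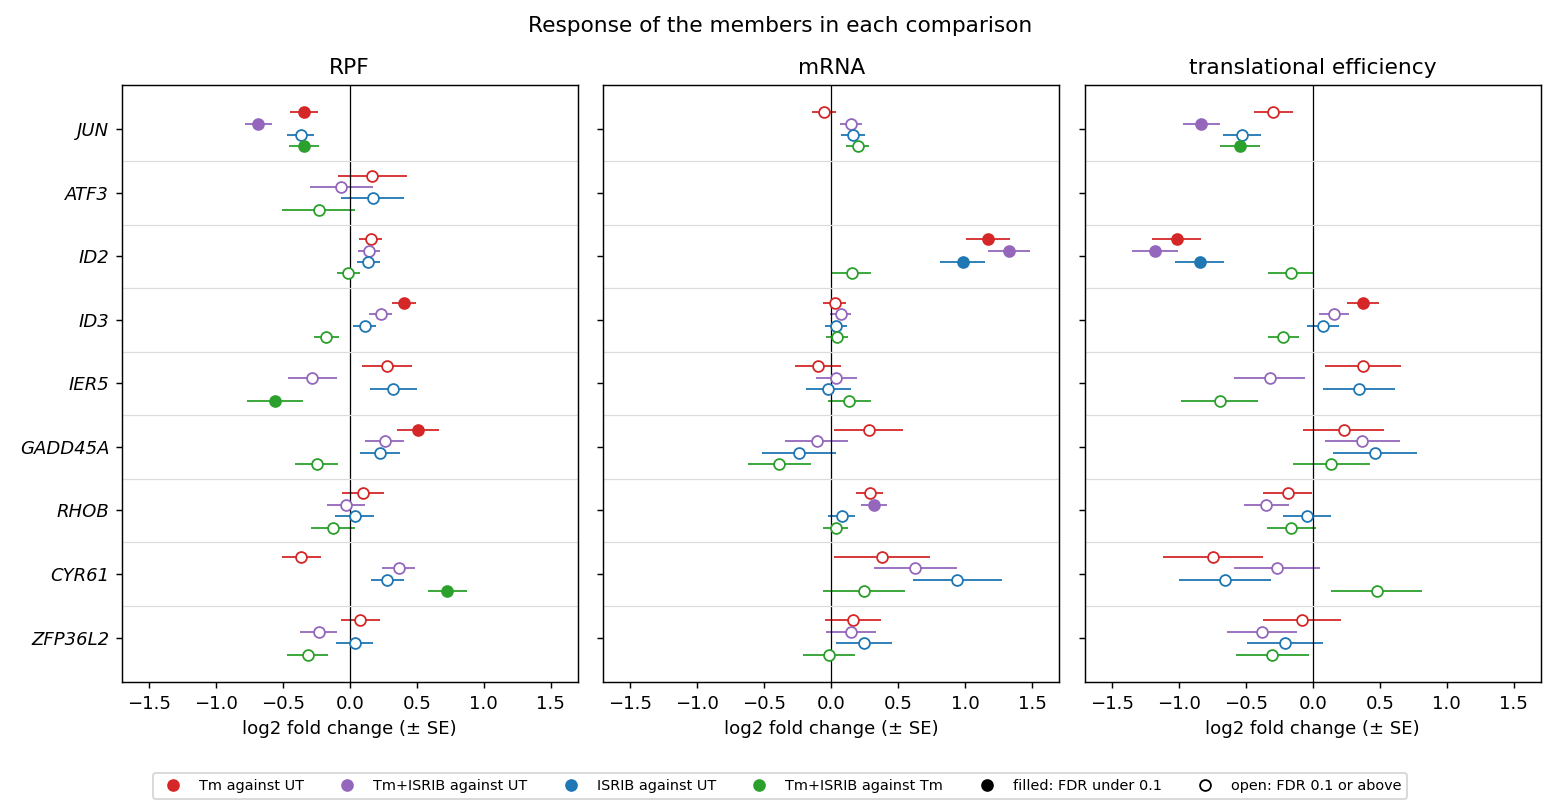
Log2 fold change (x axis, bars ± SE derived from edgeR's test) of each listed gene (y axis) in RPFs, mRNA and translational efficiency, coloured by comparison. Filled points passed an FDR of 0.1 over all tested transcripts. ID2 stands at -1.01 and -1.18 in translational efficiency in Tm and Tm + ISRIB with RPF changes near 0.15, JUN is left of 0 in all 4 RPF comparisons, and CYR61 is at 0.73 in RPFs from Tm to Tm + ISRIB.

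**Figure D5:**
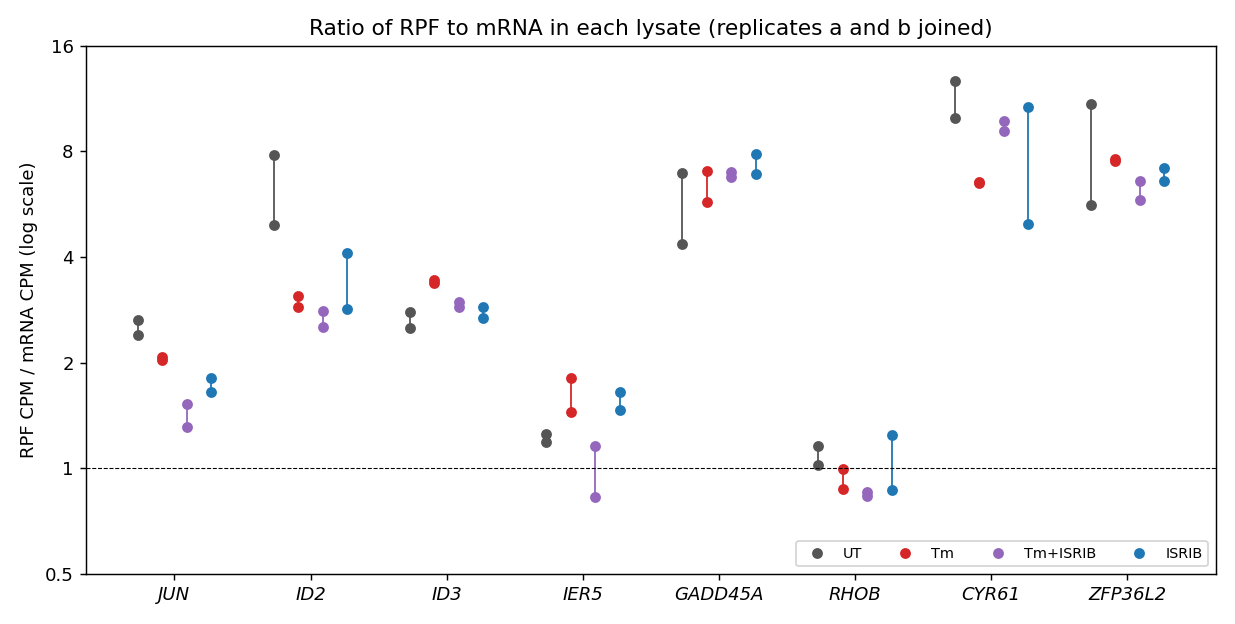
Ratio of RPF CPM to mRNA CPM (y axis, log scale) in each lysate of the 8 genes with both assays, replicates a and b joined, coloured by treatment; the dashed line marks a ratio of 1. JUN and ID2 are highest in UT, ID3 is highest in Tm, and the untreated lysates of ID2, GADD45A and ZFP36L2 lie far apart.

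Over the 16 libraries, the named transcripts whose levels most resembled those of JUN were DOK1, ZNF697 and KLHL21. Pearson's r of log2 CPM centred within each assay was 0.81, 0.77 and 0.68, among 1880 transcripts. The points share libraries and depth, and the values are descriptive.

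Other early response genes were followed as a list of 17, of which PTGS2 and DUSP2 did not pass the filter on low counts. In Tm, 3 of the remaining 15 rose in RPFs, where 13.5% of all tested transcripts passed, and DESeq2 called none of them. They were CSRNP1, an immediate early transcription factor (0.77 ± 0.27, adjusted p = 0.074), RGS2, which shortens G protein signalling (0.71 ± 0.25, adjusted p = 0.07), and BHLHE40, a bHLH repressor of the clock (0.37 ± 0.14, adjusted p = 0.087). RGS2 rose in mRNA as well, from 5.26 and 5.59 CPM in UT to 8.40 and 8.30 in Tm (0.62 ± 0.17, adjusted p = 0.069). ERRFI1, an inhibitor of the EGF receptor, rose in mRNA from 14.1 and 14.0 CPM to 20.9 and 19.5 (0.52 ± 0.12, adjusted p = 0.047), and its translational efficiency fell by 0.61 ± 0.21 (adjusted p = 0.074). In ERRFI1, as in ID2, the mRNA rose while no RPF change passed. In mRNA 2 of the 15 passed in Tm (11.0% of all tested transcripts), and in translational efficiency 1 (15.9%). With DESeq2, 1 of the 15 passed in mRNA and 0 in translational efficiency, so the efficiency call of ERRFI1 was lost.

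Genes linked to the members were counted by group. These were bZIP factors, the class of JUN and ATF3, and subunits of the CCR4-NOT deadenylase, which ZFP36 proteins recruit. Of all tested transcripts, edgeR called 13.5% in Tm by RPF level, 11.0% by mRNA level and 15.9% by translational efficiency. With only 4 and 2 genes, a lack of calls cannot show that a group differs from these shares. None of 4 bZIP factors with both assays passed in Tm in any quantity by edgeR's quasi-likelihood test or by DESeq2, with 1 at an unadjusted p under 0.05 in mRNA. Of 2 CCR4-NOT subunits with both assays none passed in Tm by either test, with 1 at an unadjusted p under 0.05 in RPFs and in translational efficiency. Each list held 1 further gene tested in Ribo-Seq alone, which did not pass in Tm by either test (12.9% of all did with edgeR).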

How the data were processed

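The authors deposited raw read counts per transcript (UCSC identifiers, coding sequence only), 1 library per sample, with the number of codons counted and neither normalization nor pooling of replicates. The submitters' processing notes name hg19, CASAVA 1.8, Bowtie 1.0.0 and TopHat2 2.0.7 and 2.0.10, and how reads matching several isoforms or copies were counted is not given in the sources used here. Such reads, and copies made by PCR, cannot be separated in counts. Standard errors were derived from edgeR's test, with a spread shared over treatments and moderated across transcripts. They hold counting noise and the spread between these lysates only, and no separate term for such reads or copies.

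The members and companion lists were chosen with earlier results of these data known. Symbols came from the study's gene lists, and the transcript with most mRNA-Seq counts was taken where several were listed. Ribo-Seq and mRNA-Seq transcripts were joined by identifier without version and equal counted length (19938 of 21520 shared an identifier, 19044 also the length). Transcripts that passed filterByExpr in both assays, with a minimum count of 10 and groups by treatment, were kept (10970, and 12242 for Ribo-Seq alone). That filter does not demand 10 counts in every library. Changes in RPFs and mRNA were fitted over the 8 libraries of an assay, and translational efficiency as the interaction of treatment and assay over all 16, with edgeR 4.0.16 in R 4.3.3 (TMM scaling, then glmQLFit and glmQLFTest), Benjamini-Hochberg adjustment over all tested transcripts and an FDR of 0.1. "Passed" means under this threshold. The fit was tested on simulated data with known changes. DESeq2 1.42.0 was an alternative. Exact permutation of 2 libraries against 2 gives no p below 0.33, so no such test was used. Per-length levels use the counted codons. Tables and figures used Python 3.11.15, pandas 2.3.3 and matplotlib 3.10.9.

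Every listed member was named, with the companion genes that passed in Tm against UT (at most 3 per list by size) and the 3 named transcripts most correlated with JUN. UTRs come from GENCODE v29 on GRCh38 for 1781 of 1888 named tested transcripts, matched by symbol and coding length, and promoters from RefSeq; these are not coordinates of the authors' files. Promoters of GADD45A, CYR61 and ZFP36L2 were not analysed here. Whether letters pair libraries was checked by the correlation, across transcripts, of how libraries with a shared letter deviate from the mean of their treatment. The methods divide a lysate between Ribo-Seq and mRNA-Seq, but do not say that a shared letter marks a shared lysate. Taking it so, the fit with each lysate as a block was also run. The study's own fold changes and p-values were not used. The result of 1 companion list is not reported here.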

Additional observations from a re-analysis of the deposited data

Results flagged for a closer look

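The effect of Tm with ISRIB was compared with that without it in RPFs of the 8 genes with both assays. The difference was not fitted with DESeq2. IER5 alone passed, and is shown for that reason. The Tm effect was 0.28 without ISRIB (Tm against UT) and -0.60 with it (Tm + ISRIB against ISRIB), a difference of -0.88 ± 0.27 on the log2 scale (edgeR's interaction contrast, adjusted p = 0.063 over 10970 transcripts, of which 757 passed). Of the 4 libraries with Tm, both with ISRIB were below both without it, whereas UT a (13.1 CPM) was the only library without Tm as low as those of Tm + ISRIB. In alternatives chosen after seeing the data, the difference lay between -0.93 and -0.88 with other scalings, without the filter and with the replicate block (adjusted p up to 0.059). Leaving out each RPF library in turn gave -1.23 to -0.65, with the adjusted p above 0.1 without UT a, ISRIB b, Tm a, Tm b or Tm + ISRIB a (0.11 to 0.28). For IER5 mRNA the difference was 0.16 ± 0.23 (adjusted p = 0.9).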

How the results depend on the processing

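All 17 fold changes of members that passed kept their direction under every alternative, and 11 of the 83 that missed the threshold passed under at least 1. With the DESeq2 Wald test, 1 member passed in RPFs in Tm against UT, 1 in RPFs in Tm + ISRIB against Tm, 1 in mRNA in Tm + ISRIB against UT and 1 in translational efficiency in Tm against UT. With no filter on low counts, 2 passed in RPFs in Tm + ISRIB against UT. With the libraries of the 2 treatments only, 2 passed in mRNA in Tm, 0 in mRNA in ISRIB, 0 in translational efficiency in ISRIB and 2 in translational efficiency in Tm + ISRIB against Tm. Leaving out each lysate in turn gave 1 to 5 members in RPFs in Tm (1 without Tm b, 5 without UT b), 1 to 3 in Tm + ISRIB against UT (3 without UT a) and 1 to 4 in Tm + ISRIB against Tm. It gave 0 to 2 members in mRNA in Tm and in ISRIB, 0 to 3 in mRNA in Tm + ISRIB against UT, 1 to 2 in translational efficiency in Tm, and 0 to 1 in translational efficiency in ISRIB and in Tm + ISRIB against Tm. The cause was not tested.

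Over all transcripts DESeq2 called 744 in RPFs in Tm where edgeR called 1485, 84 against 291 in Tm + ISRIB, 1002 against 1945 from Tm to Tm + ISRIB, and in mRNA 694 against 1209 in Tm and 776 against 1558 in Tm + ISRIB. In translational efficiency it called 610 against 983 in Tm + ISRIB, 41 against 21 in ISRIB and 404 against 670 from Tm to Tm + ISRIB. With the libraries of the 2 treatments only, mRNA gave 3162 in Tm, 2952 in Tm + ISRIB and 0 of 126 in ISRIB, RPFs 185 in Tm + ISRIB and 1 of 2 in ISRIB, and translational efficiency 0 of 21 in ISRIB and 1028 from Tm to Tm + ISRIB. Without the filter, ISRIB against UT gave 13 (RPFs), 214 (mRNA) and 32 (translational efficiency), and total counts gave 7 in RPFs. Leaving out each lysate in turn gave 637 to 1450 transcripts in RPFs in Tm, 18 to 692 in Tm + ISRIB, 0 to 37 in ISRIB and 772 to 2324 from Tm to Tm + ISRIB. In mRNA it gave 0 (without Tm a, among others) to 2917 in Tm, 0 (without UT b) to 3302 in Tm + ISRIB and 0 to 905 in ISRIB, and in translational efficiency 524 to 2276, 83 to 1637, 0 to 71 and 71 to 882 in the same order of comparisons.

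Deviations of libraries with a shared letter were weakly correlated, between -0.005 and 0.111 in RPFs and between -0.163 and 0.045 in mRNA. The mRNA values were mostly negative, with the lowest for Tm + ISRIB and UT. Libraries with a shared letter were not taken as paired. The replicate block left 3 members in RPFs in Tm, 1 in Tm + ISRIB against UT and 3 in Tm + ISRIB against Tm, 1, 2 and 1 in mRNA in Tm, Tm + ISRIB and ISRIB, and 2, 2, 1 and 1 in translational efficiency, and changed no member's call. Over all transcripts it moved only the counts in ISRIB by over 1.5 times, from 2 to 4 in RPFs and from 21 to 38 in translational efficiency. Crossing the letters of UT in the block, an alternative chosen after seeing the data, left 2 members and 2725 transcripts in mRNA in Tm + ISRIB against UT. RPF and mRNA of a treatment with a shared letter also gave correlations near 0, between -0.052 and 0.044. If these share a lysate, a value near 0 does not show that libraries are unrelated. Whether they do was not tested. The lysate replicate block gave 0 members in translational efficiency in ISRIB and changed no other member's call.

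Among members the standard errors of log2 fold changes in RPFs and in mRNA were largest in CYR61 mRNA (0.31 to 0.36). They were 0.23 to 0.27 in ATF3 RPFs and 0.24 to 0.27 in GADD45A mRNA. Those of CYR61 translational efficiency were 0.32 to 0.37. The part of counts and of spread between lysates in these was not tested.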
